A study of Mus musculus with 4 samples.

Results

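The proteasome genes of the mouse were followed through the germ cells and somatic cells of a testis, with the constitutive, immune and testis forms (the last being Psma8) set side by side. All rows of the count matrix with a symbol of Psma, Psmb, Psmc, Psmd, Psme, Psmf or Psmg followed by a digit were taken, without Psmc3ip and pseudogenes, which gave 49 of 32285 genes. These were 8 genes of the alpha ring, 7 constitutive genes of the beta ring, 3 immune and 1 thymic beta genes, 6 ATPase and 11 non-ATPase genes of the regulatory particle, 3 genes for chaperones of the regulatory particle, 6 genes for activators and an inhibitor, and 4 genes for chaperones of the core. All 49 were detected in the cells used.

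The proteasome breaks down proteins marked with ubiquitin. Its 20S core is a barrel of alpha rings, which gate the entrance, and beta rings, which hold the cutting sites, and the 19S regulatory particle caps the core, binds ubiquitin chains and unfolds the substrate. Cells exposed to interferon replace the cutting beta subunits (Psmb5, Psmb6 and Psmb7) with immune forms (Psmb8, Psmb9 and Psmb10), and the core can be capped by other activators, PA28 (Psme1 with Psme2, or Psme3 in the nucleus) and PA200 (Psme4). In germ cells Psma8 (PSMA8, also called alpha4s) can take the place of Psma7 (alpha4) in the alpha ring, and the core with PSMA8, often bound by PA200, is known to be needed for spermatocytes to complete meiosis.

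The study profiled dissociated mouse testis cells with a droplet 3' single-cell kit to see what depletion of ZNHIT1, a subunit of the complex that deposits the histone variant H2A.Z, does in germ cells. Its groups were genotype CTRL and genotype Znhit1_KO at postnatal day 16 and at postnatal day 35, with 1 library each, of 14381 and 13789 barcodes at day 16 and 13734 and 15306 barcodes at day 35. The strain, the Cre driver and the number of animals are not given in the sources used here. Counts were analysed for the Znhit1_KO library of day 35, and those of the other 3 were not used here, so every value describes cells of that library and no difference between genotypes or ages was tested.

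Summed over barcodes, the library had 72459160 UMIs (unique molecular identifiers, tags that count each captured molecule 1 time), the median barcode 3408.5. Any pair of the 4 libraries had 45 to 81 barcodes in common. After filtering, 7886 cells with a median of 4616 UMIs formed 23 clusters, named from marker genes and called "-like" for that reason. Germ-cell-like cells numbered 4398, of which 1602 were spermatogonium-like (3 clusters), 2343 early-prophase-like (4 clusters) and 453 pachytene-like (2 clusters), with median depths of 6799, 4544 and 13406 UMIs. No cluster took the name of late spermatocytes or spermatids. Somatic-like cells numbered 2603 (182 Sertoli-like, 966 Leydig-like, 675 peritubular-myoid-or-pericyte-like, 243 interstitial-stroma-like, 449 macrophage-like, 73 endothelial-like and 15 lymphocyte-like), and 885 cells (11.2%) in 4 clusters stayed unnamed. Of the markers of each name, 17 of 22 in spermatogonium-like, all 14 in early-prophase-like and all 13 in pachytene-like cells were at least 2-fold above somatic-like cells. Between germ stages the names were less distinct. The 11 markers of differentiating spermatogonia summed to 1630 CPM in the first early-prophase-like cluster, above the 1338 to 1574 CPM of the spermatogonium-like clusters, and to 226 to 486 CPM in the other early-prophase-like clusters. The targeted gene Znhit1 had 80 UMIs in germ-cell-like cells (2.48 counts per 1000000, hereafter CPM) and 234 in somatic-like cells (15.7 CPM). A 3' tag outside a deleted part would still be counted, so this is no check of the deletion.

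A level is given as CPM, the UMIs of a gene per 1000000 UMIs of all genes in the cells of a class or cluster. Since 3' tagging counts a molecule by its end, no scaling by gene length applies, and levels of different genes are compared on this CPM scale. Values in parentheses are exact 95% intervals, which cover counting error only and not the spread between animals. Germ-cell clusters are numbered within each class by their marker scores, from the preceding stage towards the following one. A gene was called higher or lower in a comparison when its CPM differed by at least 2-fold, among genes whose UMIs in both classes summed to 20 or more.

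The promoters of 4 members called lower in germ-cell-like than somatic-like cells are shown, and other lower members are left out. The 4 are those of Psmb8, Psmb9, Psme1 and, as the constitutive partner of Psma8, Psma7. Each runs from 250 bases before to 50 bases after the RefSeq start in GRCm38.p6, 5' to 3' on the gene's own strand, at chr17:34197945-34198244 (plus strand) for Psmb8, chr17:34187281-34187580 (minus strand) for Psmb9, chr14:55578244-55578543 (plus strand) for Psme1 and chr2:180042415-180042714 (minus strand) for Psma7. Capitals mark a gamma-activated site (TTCNNNGAA) in Psmb8, an interferon response element (GAAA, any 2 bases, then GAAA, here read on the other strand) in Psme1, and a CCAAT box in Psma7 and, on the other strand, in Psmb9.
Psmb8: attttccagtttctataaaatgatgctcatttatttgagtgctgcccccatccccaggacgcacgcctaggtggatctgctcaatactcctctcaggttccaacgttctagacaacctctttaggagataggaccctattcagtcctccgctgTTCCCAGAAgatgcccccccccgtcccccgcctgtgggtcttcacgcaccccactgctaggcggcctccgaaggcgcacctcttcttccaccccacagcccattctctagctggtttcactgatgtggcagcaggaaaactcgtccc
Psmb9: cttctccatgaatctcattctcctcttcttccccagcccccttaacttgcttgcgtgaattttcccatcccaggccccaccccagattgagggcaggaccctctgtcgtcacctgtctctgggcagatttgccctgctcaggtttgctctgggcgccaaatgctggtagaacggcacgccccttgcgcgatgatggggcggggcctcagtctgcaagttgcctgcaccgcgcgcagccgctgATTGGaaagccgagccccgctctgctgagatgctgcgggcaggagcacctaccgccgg
Psme1: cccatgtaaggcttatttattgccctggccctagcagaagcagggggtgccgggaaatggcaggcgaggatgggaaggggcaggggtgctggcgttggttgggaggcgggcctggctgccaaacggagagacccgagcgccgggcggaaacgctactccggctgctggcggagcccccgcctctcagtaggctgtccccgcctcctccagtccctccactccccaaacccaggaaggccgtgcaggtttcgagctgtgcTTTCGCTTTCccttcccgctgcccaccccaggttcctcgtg
Psma7: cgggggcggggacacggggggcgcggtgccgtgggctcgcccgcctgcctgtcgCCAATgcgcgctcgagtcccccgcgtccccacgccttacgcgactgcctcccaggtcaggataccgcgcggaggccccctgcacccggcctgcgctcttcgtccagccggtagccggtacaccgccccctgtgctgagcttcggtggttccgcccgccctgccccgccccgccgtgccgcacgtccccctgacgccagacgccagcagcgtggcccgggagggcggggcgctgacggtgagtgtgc

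RefSeq gave 44 promoter windows for 41 of the 49 members. On both strands, the interferon response element was in 5 of the 44 windows (11.4%) and in 3.44% of all 32851 windows of the same length. The 5 were those of Psmb3, Psmd4, Psmd9, Psme1 and Psmg4, with no immune beta gene among them. The gamma-activated site was in 3 windows of members (6.82%) and in 8.30% of all windows, and the match in Psmb8 began at position -97 from the start site. The ETS site CCGGAAGT was in 10 windows of members (22.7%) and in 3.89% of all windows, in Psma6, Psmc1, Psmc2, Psmd6, Psmd12, Psmd13, Psme3, Psme4 and Psmg3, of which none is an immune form. The CCAAT box was in 31.8% of member windows and 37.4% of all, the antioxidant response element TGACNNNGC in 13.6% and 12.4%, and the MYB site AACTGNC in 13.6% and 12.8%. The CCAAT box and the other motifs were matched by letters alone, which describes the sequence and shows no binding.

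Psma8 had the largest upward ratio of all members in germ-cell-like over somatic-like cells and in both steps between germ-cell stages, while Psma7, whose place it can take in the alpha ring, was lower in each. Psma8 (ENSMUSG00000036743) stood at 43.7, 28.2 and 26.3 CPM in the 3 spermatogonium-like clusters. It stood at 23.1, 28.9, 129 and 352 CPM in the 4 early-prophase-like clusters and at 617 and 515 CPM in both pachytene-like clusters. The level was thus low through the second early-prophase-like cluster and high from the third on. Psma7 (ENSMUSG00000027566, chr2:180036374-180042433 in GENCODE vM21) stood at 336, 364 and 388 CPM in the spermatogonium-like clusters, at 144, 78.4, 71.4 and 83.0 CPM in the early-prophase-like clusters and at 39.1 and 49.3 CPM in the pachytene-like clusters. Psma7 was already at 144 CPM in the first early-prophase-like cluster, where Psma8 was at its lowest.

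**Figure D1:**
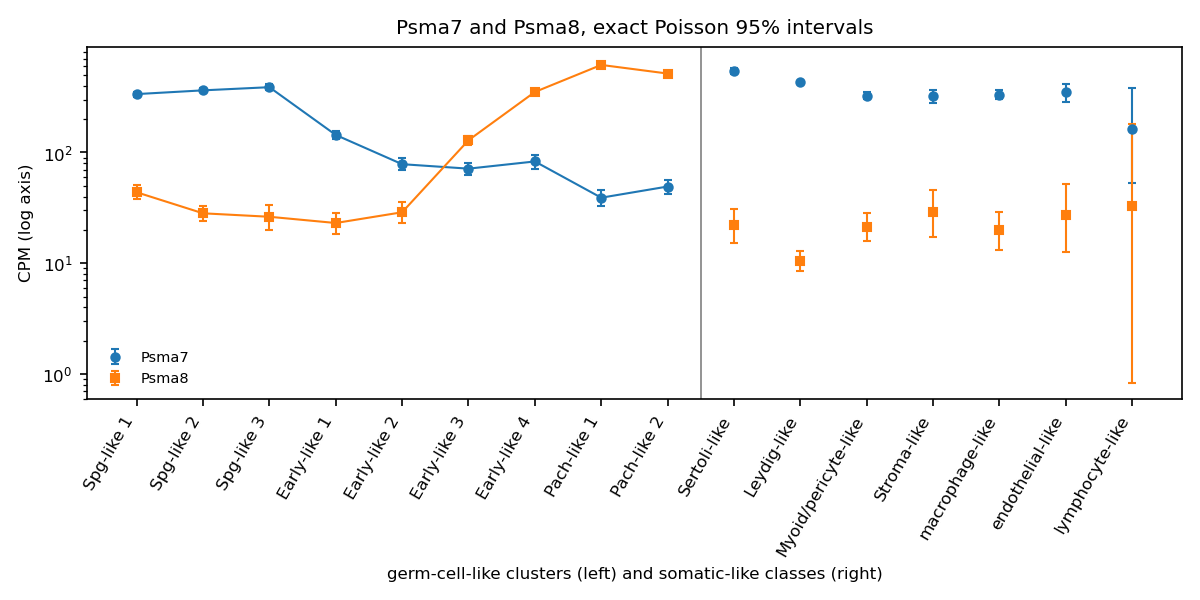
Levels of Psma7 and Psma8 in CPM (log axis) for each germ-cell-like cluster (left, joined by lines) and each somatic-like class (right). Bars are exact Poisson 95% intervals. Psma8 passes Psma7 at the third early-prophase-like cluster (129 against 71.4 CPM).

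By class, Psma8 had 412 UMIs in spermatogonium-like cells (33.1 CPM), 1409 in early-prophase-like cells (115 CPM, 109 to 121) and 4298 in pachytene-like cells (568 CPM, 551 to 585). The ratio of early-prophase-like over spermatogonium-like cells was 3.48 (3.12 to 3.89) and that of pachytene-like over early-prophase-like cells 4.92 (4.64 to 5.23). Against the last early-prophase-like cluster alone the pachytene-like level was 1.62-fold higher (1.50 to 1.74), so that most of the difference between these classes lay among the early-prophase-like clusters. Psma7 was 3.73-fold lower in early-prophase-like than spermatogonium-like cells (3.50 to 3.98) and 2.19-fold lower again in pachytene-like cells (1.93 to 2.48). Both ratios of Psma7 lay on the opposite side of 1 from those of Psma8.

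Psma8 UMIs made up 8.45% (7.68 to 9.26) of the sum of Psma7 and Psma8 in spermatogonium-like cells. The share was 13.8%, 26.9%, 64.3% and 80.9% over the early-prophase-like clusters and 94.0% and 91.3% in the pachytene-like clusters. In somatic-like cells it was 3.68% (3.23 to 4.18). None of the 50-base words in the last 500 bases of either gene's transcripts occurred in a transcript of another gene, so their tags can be told apart there.

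At the level of cells, Psma8 had a UMI in 445 of 453 pachytene-like cells (98.2%, 96.6 to 99.2) and in 8.90% of Leydig-like cells (7.18 to 10.9), a somatic type that should lack it, at median depths of 13406 and 8813 UMIs. With each cell thinned to 3000 UMIs, which left out 8 pachytene-like and 14 Leydig-like cells, the shares were 77.5% and 2.63%. Psma7 had a UMI in 45.7% of pachytene-like cells and 95.9% of Leydig-like cells before thinning, and in 10.8% and 73.4% after it. In the pachytene-like class 240 cells held UMIs of Psma8 only, 205 held both, 2 held Psma7 only and 6 held neither. The spermatogonium-like share of cells with a Psma8 UMI was 20.2% before and 7.89% after thinning, where 208 cells were left out.

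In somatic-like classes Psma8 lay between 10.5 CPM (Leydig-like, 8.47 to 12.9) and 32.7 CPM (lymphocyte-like, 1 UMI, 0.828 to 182). Apart from the 15 lymphocyte-like cells, the highest was interstitial-stroma-like at 29.1 CPM (17.2 to 46.0), and the intervals of stroma-like, endothelial-like, peritubular-myoid-or-pericyte-like, macrophage-like and Sertoli-like cells overlapped. The 3592 barcodes with under 1000 UMIs, which were not used as cells, held Psma8 at 114 CPM and Psma7 at 430 CPM. Psma8 in every spermatogonium-like cluster and Psma7 in both pachytene-like clusters also lay below these levels. Pachytene markers summed to 288 CPM in Leydig-like cells and 1201 CPM in endothelial-like cells, against 6945 and 16041 CPM in the 2 clusters named from them. The part of free RNA in the somatic and spermatogonium-like levels of Psma8, and in the pachytene-like level of Psma7, was not tested. The 4 unnamed clusters held Psma8 at 110, 336, 136 and 42.0 CPM.

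The genes with the pattern most like Psma8 were found by Pearson's r of log2(CPM + 1) over all 23 clusters, among 14479 genes with at least 100 UMIs. Among the 5 highest were Tcam1 (r = 0.95), Gm21917 (0.95), Cep44 (0.94) and Supt20 (0.94). Tcam1, a testis cell adhesion gene, stood at 13.7, 36.0 and 189 CPM over the 3 germ-cell stages. Supt20, a subunit of the SAGA complex, stood at 118, 202 and 533 CPM. Among the members the highest r was that of Psma3 (0.68) and the lowest those of Psme2 (-0.78) and Psma7 (-0.72). The clusters come from 1 library and differ in depth, so these are descriptions.

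By class, the immune catalytic genes were highest in macrophage-like, endothelial-like and lymphocyte-like cells. Each was lower over all germ-cell-like cells than over somatic-like cells. This did not hold for Psmb10 before meiosis, at 43.9 CPM in spermatogonium-like and 43.6 CPM in somatic-like cells. Psmb8 (beta5i, chr17:34197721-34201454) stood at 184 CPM in macrophage-like, 141 in endothelial-like and 327 in lymphocyte-like cells, and between 8.42 CPM (Sertoli-like) and 21.0 CPM (stroma-like) in the other somatic-like classes. In germ-cell-like clusters it lay between 0.328 and 2.46 CPM, and over all germ-cell-like cells it was 23.2-fold lower than in somatic-like cells (17.1 to 32.2). The germ-cell level was below the 4.99 CPM of the barcodes with under 1000 UMIs. Psmb9 (beta1i, chr17:34181987-34187764), which lies in the same stretch of chromosome 17, stood at 117 CPM in macrophage-like cells and was 8.56-fold lower in germ-cell-like than somatic-like cells (6.78 to 10.9). Within germ-cell-like cells Psmb9 was highest in the first spermatogonium-like cluster at 14.0 CPM (10.7 to 18.1) and between 0 and 2.59 CPM in the other clusters, against 9.22 CPM in the barcodes with under 1000 UMIs.

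Psmb10 (beta2i), like Psmb9, had its highest germ-cell level in the first spermatogonium-like cluster, whose leading genes include Sall4, Egr4 and Sohlh1 and whose best name was undifferentiated spermatogonium. It stood there at 81.3 CPM, against 99.6 CPM in macrophage-like and 39.4 CPM in Leydig-like cells. In the other spermatogonium-like clusters it stood at 22.0 and 31.9 CPM. It stood at 9.12, 3.94, 7.11 and 2.62 CPM in the early-prophase-like clusters, and at 5.36 and 1.64 CPM in those named pachytene-like. The first spermatogonium-like cluster was the only germ-cell-like cluster above the 33.4 CPM of the barcodes with under 1000 UMIs. A Psmb10 UMI was found in 54.5% of its 314 cells at a median depth of 12259.5 UMIs, and in 22.3% after thinning to 3000 UMIs, which left out 9 cells. In early-prophase-like cells the shares were 3.12% and 2.10%. All 12 macrophage markers had UMIs in the first spermatogonium-like cluster, and they summed to 84.4 CPM, within the 63.6 to 110 CPM of all germ-cell-like clusters and far below the 24788 and 29529 CPM of the macrophage-like clusters. Psmb8 stood at 1.90 CPM in the same cluster.

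As a share of the UMIs of the 6 catalytic genes, the immune forms made up 50.6% in macrophage-like (47.6 to 53.6), 51.1% in lymphocyte-like (35.8 to 66.3) and 42.8% in endothelial-like cells (36.4 to 49.4), whose intervals overlap. The share was 12.4% in stroma-like, 10.1% in Leydig-like, 9.50% in peritubular-myoid-or-pericyte-like and lower, at 56 of 789 UMIs (5.41 to 9.12%), in Sertoli-like cells, with overlap between each of these neighbours in the order. It was 6.35% in spermatogonium-like (5.88 to 6.84), 1.79% (1.45 to 2.19) at the next stage, and 0.94% (0.70 to 1.25) in pachytene-like cells. Among spermatogonium-like clusters it was 10.3% in the first and 3.38% and 4.72% in the others. By class, the share was thus lowest where Psma8 was highest. By cluster it was not, with 1.31% (0.90 to 1.85) in the first pachytene-like cluster, where Psma8 peaked, and 0.60% and 0.73% in the second and in the last early-prophase-like cluster.

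**Figure D2:**
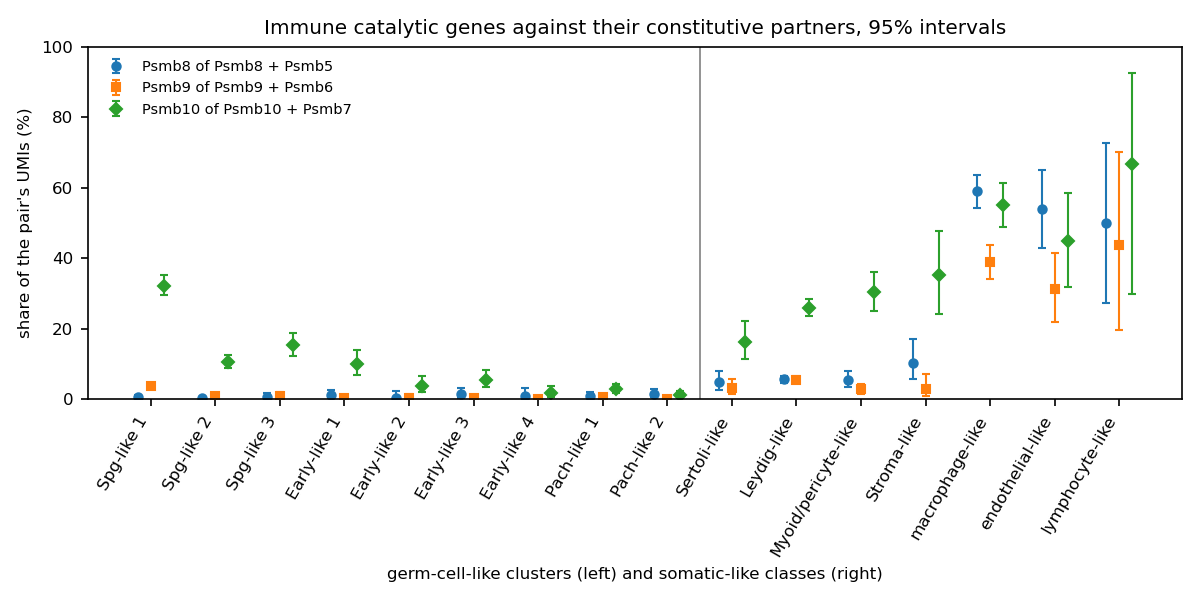
Share of UMIs of each immune catalytic gene in the sum with its constitutive partner, in percent, for germ-cell-like clusters (left) and somatic-like classes (right). Bars are Clopper-Pearson 95% intervals. In macrophage-like cells the shares are 59.1% (Psmb8), 39.0% (Psmb9) and 55.1% (Psmb10), and in pachytene-like cells they are near 0 for each pair.

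The constitutive partners differed by less than 2-fold between germ-cell-like and somatic-like cells. Psmb5 (beta5), which cuts after hydrophobic residues, stood at 190 and 201 CPM in them, Psmb6 (beta1), which cuts after acidic ones, at 272 and 240 CPM, and Psmb7 (beta2), which cuts after basic ones, at 148 and 102 CPM. Psmb5 was 2.88-fold lower in early-prophase-like (105 CPM) than spermatogonium-like cells (302 CPM) and stood at 146 CPM in pachytene-like cells. Psmb6 stood at 279, 213 and 358 CPM and Psmb7 at 179, 109 and 163 CPM over the 3 stages, with the lowest value in early-prophase-like cells for both. The thymic gene Psmb11 had 27 UMIs in germ-cell-like and 2 in somatic-like cells (ratio 6.24, 1.57 to 54.1), and its highest class level was 1.37 CPM.

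Over all 49 members, 7 were higher and 7 lower in germ-cell-like than somatic-like cells. Of all 18404 genes measured, 39.6% were higher and 25.5% lower, so the members' 14.3% in each direction was below the share of all genes. The median log2 ratio was 0.31 over members and 0.52 over all genes. The higher members were Psma8 (12.2-fold, 10.7 to 14.0), Psmb11, the non-ATPase genes Psmd1, Psmd2 and Psmd11, and the core chaperone genes Psmg1 and Psmg2. The lower ones were Psma7, the 3 immune genes, and the PA28 genes Psme1, Psme2 and Psme2b. For some of them the difference lay in the later germ-cell classes. Spermatogonium-like cells held Psma7 at 359, Psmb10 at 43.9 and Psme2 at 117 CPM, against 407, 43.6 and 113 CPM in somatic-like cells. Leydig-like cells held 8547019 of the 14897400 UMIs of somatic-like cells and so weighed most in the somatic-like levels. Psme1 stood at 242 CPM in them and between 61.5 CPM (Sertoli-like) and 165 CPM (endothelial-like) in the other somatic-like classes. In spermatogonium-like cells Psme1 stood at 86.4 CPM, and at 151 CPM in their first cluster. Psme2b rests on few UMIs, as does Psmb11. No constitutive gene of the core other than Psma7 and Psma8 (13 genes) differed by 2-fold, nor did any of the 6 ATPase genes, whose ratios lay between 1.02 (Psmc4) and 1.55 (Psmc3).

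In early-prophase-like against spermatogonium-like cells, 48 members were measured, of which 1 (Psma8) was higher and 13 were lower. Of all 15978 genes, 14.0% were higher and 28.8% lower, and the medians of the log2 ratio were -0.44 for members and -0.24 for all genes. The members' 27.1% lower was near the share of all genes. The lower members were Psma5 and Psma7 of the alpha ring, Psmb1, Psmb3 and Psmb5 of the beta ring, Psmb9 and Psmb10, the ATPase genes Psmc1 and Psmc5, the chaperone gene Psmd5, and Psme1, Psme2 and Psme3. No non-ATPase gene was among them (11 measured, 5 ratios above and 6 below 1).

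In pachytene-like against early-prophase-like cells, 46 members were measured, with 4 higher (Psma8, Psmb3, Psmd4 and Psmd9) and 4 lower (Psma7, Psmc6, Psmd10 and Psme2). Of all 14845 genes, 18.1% were higher and 28.7% lower, and the medians were 0.25 for members and -0.34 for all genes. Against the last early-prophase-like cluster alone, 3 of 45 members were higher (Psmc3, Psmc5 and Psmf1) and 1 lower (Psmd10), where 19.9% and 11.4% of 12430 genes were. Psmc3 was 3.11-fold higher in this comparison (2.71 to 3.57) and stood at 102 CPM in the last early-prophase-like cluster and 183 and 459 CPM in the pachytene-like clusters.

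**Figure D3:**
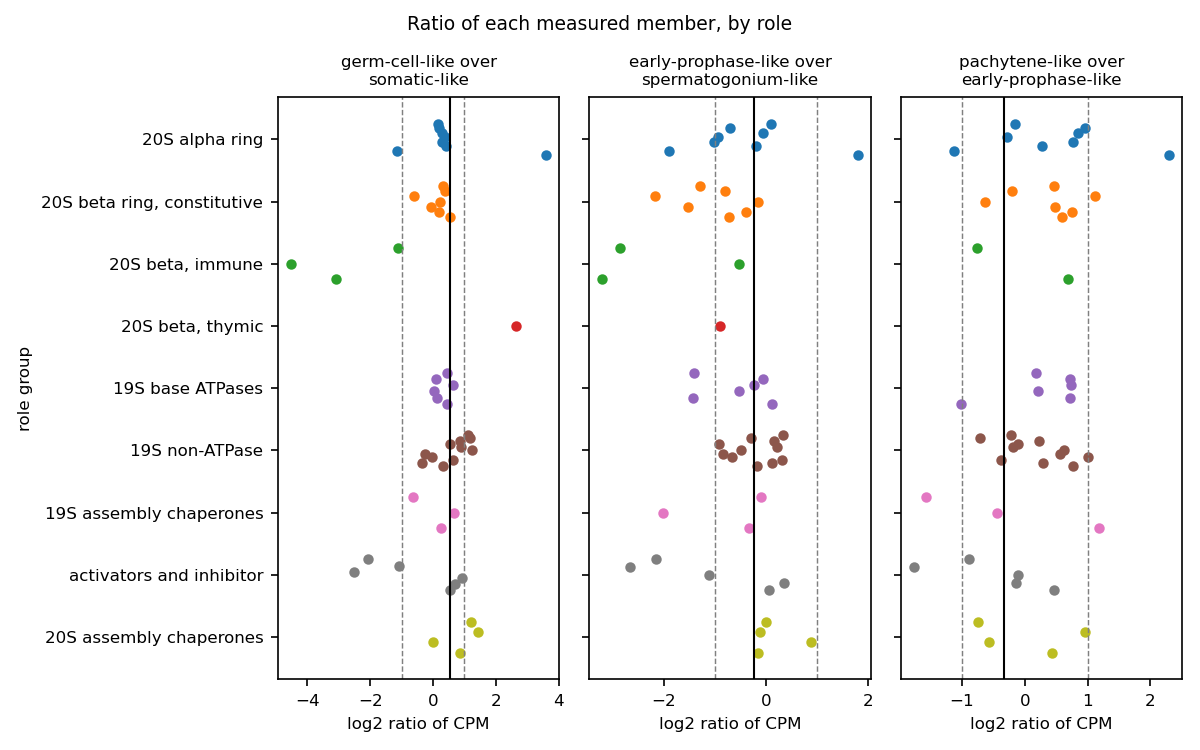
Log2 ratio of CPM of each measured member (points, coloured and set in rows by role) in 3 comparisons. Dashed lines are 2-fold, and the solid line is the median of all genes measured (0.52, -0.24 and -0.34). Psma8 is the rightmost point of each panel.

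The summed level of all members changed less than Psma7 and Psma8 did. It was 9501 CPM in spermatogonium-like cells, 6532 at the next stage, and 8290 in pachytene-like cells, and it lay between 5626 CPM (macrophage-like) and 7420 CPM (lymphocyte-like) in the somatic-like classes. Over the 9 germ-cell-like clusters, the highest CPM of a member divided by its lowest had a median of 2.92 over the 45 members with more than 3 UMIs in every cluster. The range exceeded 3-fold in 22 of them (48.9%) and stayed under 2-fold in 6 (13.3%). Over all 10633 genes with as many UMIs the median range was 4.85, 76.5% exceeded 3-fold and 4.89% stayed under 2-fold, and counting error widens the range of genes with few UMIs. The widest were Psmb10 (49.5), Psme2 (39.1), Psma8 (26.7), Psme1 (16.2) and Psma7 (9.94), and the narrowest was Psma6 (1.50), an alpha ring gene at 160 to 240 CPM.

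**Figure D4:**
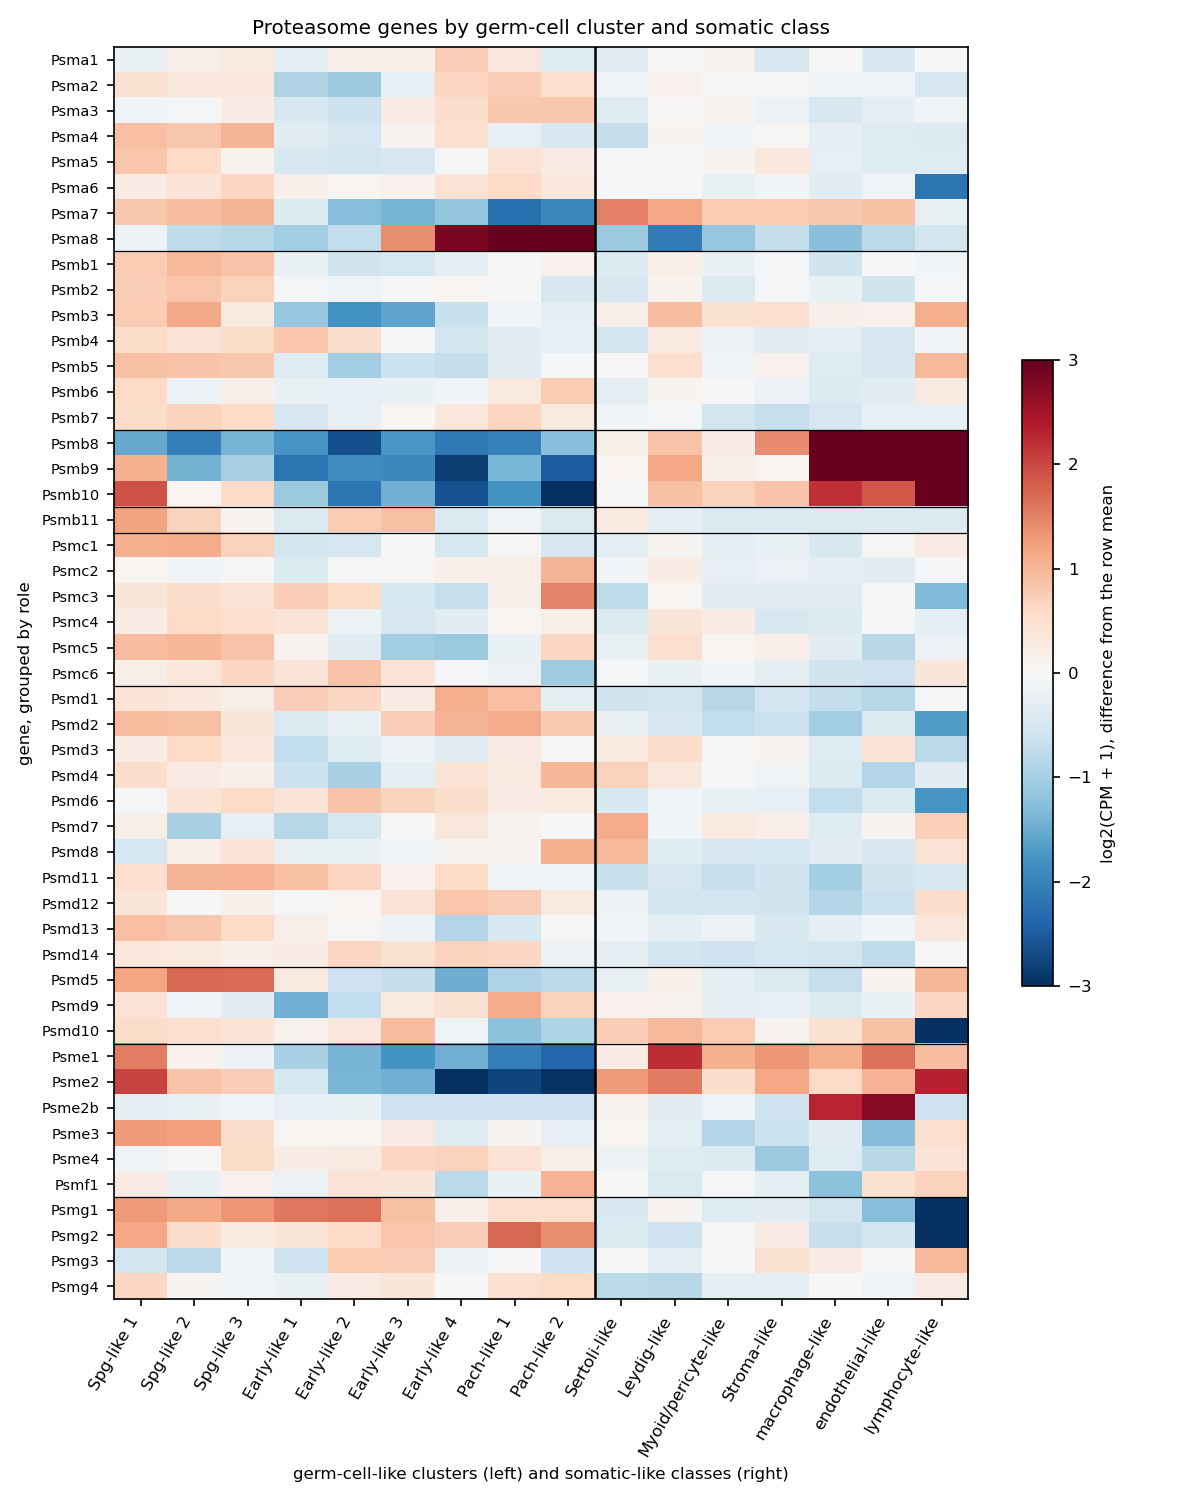
Level of each member as log2(CPM + 1) minus its mean over the columns shown, for the 9 germ-cell-like clusters (left) and the 7 somatic-like classes (right), with rows grouped by role. Blue is below and red above the row's own mean, and the scale ends at 3 in both directions. Psma8 is red from the third early-prophase-like cluster, and the immune genes are red in macrophage-like, endothelial-like and lymphocyte-like cells.

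The other alpha ring genes kept levels above 100 CPM in every germ-cell-like cluster. Psma3 was the highest alpha gene of pachytene-like cells after Psma8, at 323, 313 and 565 CPM over the 3 stages, and Psma2 stood at 420, 258 and 501 CPM. Psma4 stood at 402, 209 and 171 CPM, with 174, 154, 232 and 302 CPM over the 4 early-prophase-like clusters, so that its level in the last of these clusters was above that of pachytene-like cells. Psma5 stood at 326, 161 and 273 CPM. In the last 500 bases of their transcripts, 62.5% of the 50-base words of Psma5, 35.9% of those of Psma3 and 27.0% of those of Psma4 occurred in other genes' transcripts, so their counts are uncertain.

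The beta ring had its own order. Psmb2 (beta4) was the highest constitutive beta gene in spermatogonium-like cells at 692 CPM and stood at 398 and 347 CPM in the later classes. Psmb3 (beta3) stood at 426, 94.5 and 204 CPM, a 4.50-fold lower level in early-prophase-like than spermatogonium-like cells (4.22 to 4.80). Psmb1 (beta6) stood at 637, 261 and 359 CPM. Psmb4 (beta7) alone among the constitutive beta genes had its highest cluster level in the first early-prophase-like cluster, at 434 CPM. Shared 50-base words made up 63.2% for Psmb3 and 54.5% for Psmb5, so these 2 counts are uncertain too.

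In the regulatory particle, the ATPase genes that drive unfolding differed in their course. Psmc1 stood at 170, 64.6 and 72.8 CPM and Psmc5 at 214, 79.9 and 132 CPM over the 3 stages, while Psmc2 stood at 99.9, 96.1 and 159 CPM. Psmc6 ran the other way, with 226, 245 and 122 CPM, a 2.02-fold lower level in pachytene-like than early-prophase-like cells. Against the last early-prophase-like cluster alone the pachytene-like level of Psmc6 was 1.40-fold lower (1.24 to 1.58). Psmc6 and Psmc2 are thus partners in a ring with opposite order between the last 2 classes.

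Among the non-ATPase genes, Psmd2, a scaffold of the base, was 2.36-fold higher in germ-cell-like cells (344 CPM) than somatic-like cells (145 CPM; 2.26 to 2.48). Psmd1, the other large scaffold, stood at 234 and 108 CPM and Psmd11 of the lid at 270 and 119 CPM. Of their 50-base words, 56.8% (Psmd1), 23.5% (Psmd2) and 16.3% (Psmd11) occurred in another gene's transcripts, which makes these counts uncertain too. Psmd14, the lid's deubiquitinase, stood at 158, 183 and 159 CPM over the 3 germ-cell stages and 89.5 CPM in somatic-like cells. Psmd4, a ubiquitin receptor, stood at 206, 130 and 262 CPM and was 2.02-fold higher in pachytene-like than early-prophase-like cells (1.89 to 2.16). It was already at 221 CPM in the last early-prophase-like cluster. Against that cluster alone the pachytene-like level was 1.19-fold higher (1.08 to 1.31).

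Chaperones of the regulatory particle went in different directions. Psmd5 (S5b) stood at 145, 36.1 and 26.6 CPM, Psmd9 (p27) at 66.9, 53.6 and 121 CPM, and Psmd10 (gankyrin) at 30.1, 28.2 and 9.51 CPM over the 3 stages. Psmd5 was 4.03-fold lower in early-prophase-like than spermatogonium-like cells (3.63 to 4.48), and Psmd10 was 2.97-fold lower in pachytene-like than early-prophase-like cells (2.30 to 3.88). Chaperones of the core were higher in germ-cell-like cells for Psmg1 (146 against 62.6 CPM) and Psmg2 (87.9 against 32.9 CPM), which pair with each other to build the alpha ring. Of the other pair, Psmg4 stood at 100.5 against 55.0 CPM and Psmg3 at 30.1 against 30.3 CPM.

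The activators diverged across the germ-cell stages. Psme1 (PA28 alpha) stood at 151, 56.0 and 46.5 CPM in the spermatogonium-like clusters, between 14.2 and 25.7 CPM in the early-prophase-like and at 11.7 and 9.31 CPM in the pachytene-like clusters. Psme2 (PA28 beta) stood at 188, 83.2 and 75.8 CPM, then from 31.1 CPM in the first to 4.80 CPM in the last early-prophase-like cluster, then 5.87 and 4.93 CPM. Both genes, which encode the partners of 1 ring, were thus highest in the first spermatogonium-like cluster, as Psmb9 and Psmb10 were. Psme4 (PA200) stood at 116, 127 and 184 CPM, then 147, 151, 198 and 203 CPM, then 169 and 143 CPM, and showed no such fall. Psme3 (PA28 gamma) stood at 104, 47.9 and 44.4 CPM by class.

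Early-prophase-like cells were 4.44-fold lower in Psme1 than spermatogonium-like cells (3.85 to 5.13) and 6.34-fold lower in Psme2 (5.51 to 7.32). Psme4 made up 30.3% of the UMIs of the 4 activator genes in spermatogonium-like cells, 66.8% at the next stage, and 72.2% (69.9 to 74.3) in pachytene-like cells. Its share was 18.9% in Leydig-like cells, where Psme1 reached its highest class level of 242 CPM. Words shared with other genes' transcripts made up 66.8% for Psme2 and 13.6% for Psme1, and the level of Psme2 is uncertain for this reason, as is that of Psme2b (6 UMIs in germ-cell-like and 16 in somatic-like cells). Psmf1, which encodes the inhibitor PI31, stood at 20.1, 20.9 and 28.9 CPM.

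**Figure D5:**
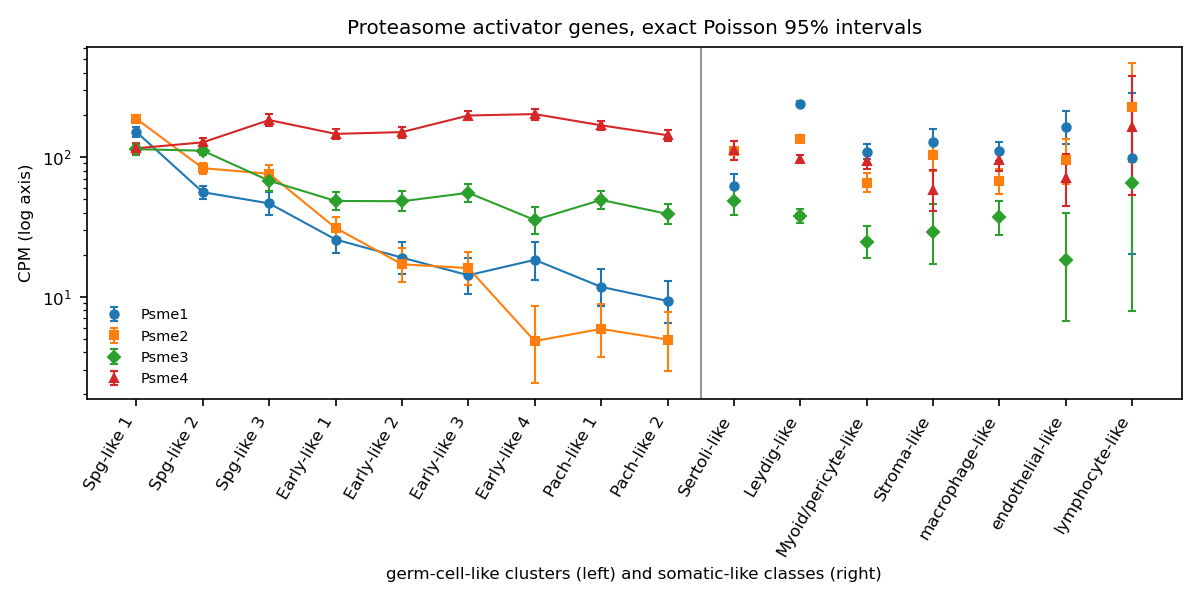
Levels of Psme1, Psme2, Psme3 and Psme4 in CPM (log axis) for each germ-cell-like cluster (left, joined by lines) and each somatic-like class (right), with exact Poisson 95% intervals. Psme1 and Psme2 go down from 151 and 188 CPM to 9.31 and 4.93 CPM, while Psme4 stays between 116 and 203 CPM.

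Genes that work with the proteasome were taken from lists. Of 15 measured genes of associated factors, 2 were higher and 1 lower in germ-cell-like than somatic-like cells, and 2 (Pomp and Usp14) were lower in early-prophase-like than spermatogonium-like cells. These counts lie below the shares of all genes, 39.6% higher and 25.5% lower in the former comparison and 28.8% lower in the latter. Pomp, the chaperone that matures the core, stood at 292, 131 and 205 CPM over the 3 stages, with its lowest value in early-prophase-like cells, as many beta genes had. Adrm1, a ubiquitin receptor, stood at 87.6, 66.3 and 90.1 CPM. In pachytene-like against early-prophase-like cells, Ube3c, Ubqln2, Zfand5 and Txnl1 were lower.

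Of 12 genes for ubiquitin and its activating and conjugating enzymes, 5 were higher and 1 (Uba1) lower in germ-cell-like cells, where 39.6% and 25.5% of all genes were, so that the count of higher genes is near that of genes in general. Uba1, the X-linked main activating enzyme, stood at 98.1, 29.0 and 7.79 CPM over the 3 stages. Uba6, the other activating enzyme, stood at 144, 292 and 63.1 CPM, and Ubb, a polyubiquitin gene, at 2309, 2196 and 6356 CPM. Among the germ-cell stages, the highest levels of these 3 genes thus fell in 3 different ones. Of the 10 transcription factor genes tied to proteasome genes, 4 were higher in germ-cell-like cells (Mybl1, Nfya, Nfyb and Nfyc) and 3 lower (Nfe2l1, Nfe2l2 and Foxo4), which is near the shares of all genes. Mybl1, a regulator of pachytene transcription, stood at 12.5, 129 and 158 CPM, and Nfe2l1, the factor that restores proteasome genes under inhibition, at 79.1 CPM among germ-cell-like against 165 CPM among somatic-like cells.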

How the data were processed

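Counts of UMIs per gene and barcode were deposited by the authors as whole numbers, not normalised, and per the file headers they come from Cell Ranger 7.1.0. STAR and the build mm10 are named in the submitters' processing notes. No deposited barcode had fewer than 500 UMIs. The rules for calling barcodes and for reads that match several genes are not given in the sources used here. Barcode and feature lists of 4 libraries were read, and 32158 of 32285 genes matched GENCODE vM21.

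Cells needed 500 genes, 1000 UMIs and at most 10% mitochondrial UMIs (8121 of 15306 barcodes), and Scrublet, run in scanpy 1.11.5, removed 235 doublets (2.89%). Free RNA was not subtracted. From 3000 variable genes, 30 principal components and 15 neighbours, 23 clusters were found by the Leiden method (leidenalg 0.10.2 with igraph 0.11.9) at resolution 1. Clustering left out 1941 genes, which were all members, the context lists, mitochondrial genes and those of both sex chromosomes. The name with the best mean marker score was given where that score was at least 0.6, led the next name by 0.25 (not required between consecutive germ stages) and had 3 markers at 2-fold. Clusters whose median depth was under that of all cells divided by 3, with none of the name's markers among their leading genes, stayed unnamed. The scoring rule was set with the clusters in view, and names may differ from those of the study.

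Class sums were turned into CPM. Intervals are exact Poisson for CPM, conditional binomial for ratios and Clopper-Pearson for shares. A class without UMIs was set to 3 counts in ratios. Each group has 1 library, so there was no test, no replicate and no p-value. The ratio step was run on simulated data for early-prophase-like over spermatogonium-like cells, with 200 of 15978 genes changed. The interval contained the simulated ratio for 95.7% of the 15978 genes. This checks the computation and is no measure of the spread between animals.

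The members and lists were chosen with earlier results of these data known. Named in full were Psma7, Psma8, Psmb5 to Psmb10, the 4 largest ratios in each direction of each comparison, the highest member of each role group, the largest ratios of each context list, and the 5 genes most like Psma8. Some genes that this rule took are not reported here. Other members were named to describe their role groups, after their values were seen. Alternatives were 200 genes and 500 UMIs per cell, at most 20% mitochondrial UMIs, doublets kept, resolution 2, 2000 variable genes, equal weight per cell, a minimum of 50 UMIs and the last early-prophase-like cluster alone. Tools were matplotlib 3.10.9, pandas 2.3.3, scikit-learn 1.9.0, scipy 1.17.1 and numpy 2.4.6 under Python 3.11.15.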

Additional observations from a re-analysis of the deposited data

How the results depend on the processing

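Of 98 recomputed values, 90 stayed within their interval or within 1.5 times the main count, 8 moved and 0 changed direction. The ratio of Psma8 in pachytene-like over early-prophase-like cells was 4.57 at resolution 2, 6.19 with equal weight per cell and 1.62 against the last early-prophase-like cluster alone. The number of members lower in that comparison was 2 at resolution 2 and 1 against the last cluster. The immune share in germ-cell-like cells was 4.26% with at most 20% mitochondrial UMIs, and that in macrophage-like cells 47.4% with doublets kept. With clusters of a marker score under 1 left unnamed, an alternative chosen after seeing the data, 2 members were higher in early-prophase-like than spermatogonium-like cells. The causes were not tested. The alternative of 200 genes and 500 UMIs used the doublet calls of the main cells. With 1 library per group, no replicate could be left out. No paired analysis was possible because each group has 1 library and the result comes from no test. Depth limits genes of few UMIs, such as Psmb11, Psme2b and, in germ cells, Psmb8.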

Other observations

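Of 20 genes of MHC class I presentation and interferon response, 15 were lower and 1 (Calr) higher in germ-cell-like than somatic-like cells, where 25.5% and 39.6% of all genes were. Tap1, which carries peptides made by the proteasome into the endoplasmic reticulum and lies beside Psmb9, stood at 0.40 CPM in germ-cell-like cells, against 8.06 CPM over somatic-like cells and 22.8 CPM in the macrophage-like class. B2m, the shared light chain of class I molecules, stood at 25.2 against 327 CPM. The heavy chain gene H2-K1 was called neither lower nor higher between the compartments. Within germ-cell-like cells it stood at 587 CPM in early-prophase-like cells, above the 95.8 CPM of spermatogonium-like and the 123 CPM of pachytene-like cells. H2-D1, which was among the lower genes, stood at 18.0, 91.5 and 20.3 CPM over the 3 stages from spermatogonium-like to pachytene-like. Class I heavy chain genes are similar in sequence, and reads may be split between them. The sequence they share was not measured here, and these 2 levels are uncertain.

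Psmd8, a lid subunit, stood at 175 CPM (147 to 206) in the first Sertoli-like cluster of 102 cells and 791 CPM (729 to 857) in the second of 80 cells. No other somatic-like cluster or germ-cell-like cluster held Psmd8 above 509 CPM. Psmd7, also of the lid, stood at 477 CPM (430 to 528) and 299 CPM (262 to 341) in the same clusters. These values were picked after they were seen, and the clusters come from 1 library.

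Usp2, a deubiquitinase gene known from spermatogenesis, stood at 40.4, 30.9 and 418 CPM in spermatogonium-like, early-prophase-like and pachytene-like cells. It was the only gene of the list of germ-cell ubiquitin genes that was higher in pachytene-like than early-prophase-like cells. Of the 15 measured there, 5 were lower (Uba1y, Usp26, Rnf212, Fbxo47 and Huwe1), and the median log2 ratio was -0.59. In that comparison 18.1% of all genes were higher and 28.7% lower, with a median of -0.34. The count of lower genes is thus near that of genes in general. Uchl1, a deubiquitinase of spermatogonia, stood at 509, 53.0 and 60.4 CPM. Of the 16 genes of this list measured between compartments, 13 were higher and 0 lower in germ-cell-like than somatic-like cells, where 39.6% and 25.5% of all genes were. The genes of the list were chosen for their known germ-cell roles, so this direction is not independent evidence.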
